A study of Ovis aries with 7 samples.

Results

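CGA, TSHB and MTNR1A are genes known from the pars tuberalis, the thin sheet of pituitary tissue that wraps the stalk below the hypothalamus. The array names 937 genes, and these are 3 of them. Every probe whose gene name or description gives 1 of the 3 was taken, which yielded 5 of 15008 probes. CGA had 2 probes, TSHB had 1 and MTNR1A had 2, so none of the 3 genes was absent. The genes were chosen by their levels over these arrays, on which CGA and TSHB vary together. Those levels and the joint variation are therefore given as a description, with no test.

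Hypothalamic transcripts of 7 sheep fetuses in late gestation were hybridised to 1-colour Agilent arrays, 1 for each fetus. In the hypoxia group of 3 fetuses, the ewe inhaled gas low in oxygen for 30 min and the fetus then recovered at normal oxygen for 30 min. In the control group of 4 fetuses, oxygen was normal over both periods, 60 min in all. Every fetus in either group carried chronic catheters, and their breed and sex were not stated.

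CGA encodes the alpha subunit that thyrotropin shares with the gonadotropins LH and FSH, and TSHB encodes the beta subunit that makes the hormone thyrotropin. MTNR1A encodes the melatonin receptor through which the pars tuberalis of sheep reads night length. In adult sheep, thyrotropin from the pars tuberalis acts on the TSH receptor of tanycytes, the glial cells lining the ventricle, and so sets thyroid hormone conversion in the hypothalamus over the seasons. Thyrotrophs of the pars distalis, the main part of the anterior pituitary, express CGA and TSHB too, so neither gene by itself marks the pars tuberalis.

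The probe sequences are shown because the names in the files are old and the probes are what was measured. Both CGA probes carry an older locus name and the words precursor polypeptide, and they were tied to CGA by gene ID through the RefSeq gene table of the ARS-UI_Ramb_v3.0 assembly. The TSHB probe is described as sheep beta-thyrotropin. The files give no genome position for these probes, and the starts below are positions in the target transcript. For CGA the opening 30 of 60 bases are given. In the TSHB probe the capitals mark the stop codon TAA that closes the reading frame running through the probe. In the 2 MTNR1A probes, of which the last 30 and the first 30 bases are given, the capitals mark 20 bases that both contain.
CGA, reported probe, start 550: cctgctttgagaatatactgcagctttatt
CGA, other probe, start 619: tcttttcatttggaatgaaatatggcattt
TSHB, start 410: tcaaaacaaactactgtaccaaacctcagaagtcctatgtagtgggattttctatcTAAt
MTNR1A, other probe, start 1114: aagatctgaaCACTACTCCAAGCCTTACTC
MTNR1A, reported probe, start 1154: CACTACTCCAAGCCTTACTCattttcattc

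The CGA probes do not overlap, so they are separate measurements of 1 transcript, whereas the MTNR1A probes share part of their target. The reported probe of a gene is the one with the higher mean level over the 7 arrays. Levels below are log2 processed signals relative to each array's 75th percentile, so a level of 0 lies at that percentile. A probe counts as measured on an array where the scanner software called its spot well above background. Such spots made up 77.2% to 86.4% of the spots per array, and the 75th percentile itself was a processed signal of 2024 to 2908. Slide 1 held the hypoxia arrays, slide 2 held control replicates 1 and 2, and slide 3 held control replicates 3 and 4.

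CGA spanned a very wide range between fetuses within both groups. Its reported probe was measured on 7 of 7 arrays and had levels of 0.35, -4.63 and 0.28 on hypoxia replicates 1 to 3, against -0.74, -6.47, 1.39 and -2.50 on control replicates 1 to 4. The underlying processed signals were 3316, 88.8 and 2857 on the hypoxia arrays, against 1231, 22.9, 7638 and 418 on the control arrays. Control replicate 3 was highest and control replicate 2 lowest, hypoxia replicate 2 was second lowest, and the groups overlapped. The highest array exceeded the lowest 232-fold, a span of 7.86 on the log2 scale.

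The other CGA probe gave the same order of arrays. Its levels were 0.42, -4.34 and 0.21 on the hypoxia arrays, against -1.12, -7.22, 1.44 and -2.55 on the control arrays, and it was measured on 6 of 7 arrays, control replicate 2 being the exception. The difference between the CGA probes lay between -0.29 and 0.08 on the hypoxia arrays, against -0.05 to 0.76 on the control arrays. The probes correlated at r = 0.995 (rho = 1, n = 7 arrays that each probe shares). From high to low the order by the reported probe was control 3, hypoxia 1, hypoxia 3, control 1, control 4, hypoxia 2 and control 2. Hypoxia replicates 1 and 3, neighbours in that order, lay closer together than the probes did on several arrays and so cannot be ranked with certainty. Both probes placed replicate 1 higher, and rho = 1 counts that order all the same.

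TSHB was high and low on the same arrays as CGA. Its levels were -3.97, -7.45 and -4.94 on hypoxia replicates 1 to 3, against -5.56, -9.09, -3.16 and -7.03 on control replicates 1 to 4. The processed signals were 166, 12.6 and 76.7 on the hypoxia arrays, against 43.7, 3.70, 325 and 18.2 on the control arrays. TSHB was measured on 2 of 3 hypoxia arrays and 3 of 4 control arrays, and hypoxia replicate 2 and control replicate 2, where it was not well above background, were also the arrays lowest in CGA. The groups overlapped. Over the 5 arrays on which TSHB was measured, it spanned 14.6-fold (3.87 on the log2 scale) and CGA spanned 14.9-fold (3.90).

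**Figure D1:**
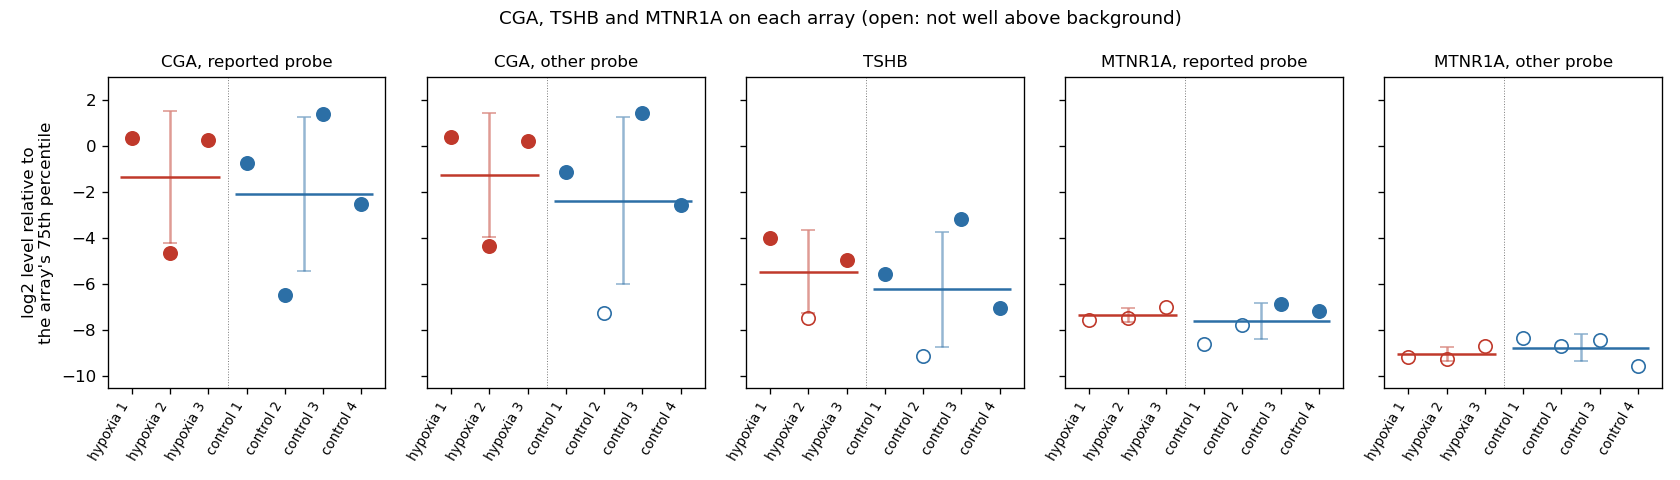
Level of each of the 5 probes of CGA, TSHB and MTNR1A on each array, as log2 processed signal relative to the array's 75th percentile, with hypoxia arrays in red and control arrays in blue. Filled points were well above background and open points were not, horizontal lines are group means and vertical bars are SD (n = 3 hypoxia, n = 4 control). CGA and TSHB move together from array to array with overlapping groups, while MTNR1A stays low and is filled only on control replicates 3 and 4 for its reported probe.

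Over the 7 arrays the levels of CGA and TSHB correlated at r = 0.972 (rho = 1), although the place of hypoxia replicate 2 and control replicate 2 rests on TSHB signals not well above background. The points share 1 RNA sample, 1 array and 1 scaling factor per fetus, and the genes were picked for this relation. After subtraction of the group means r was 0.973 and rho 0.964. Without control replicate 2 and hypoxia replicate 2, the arrays farthest from the median of CGA and also those on which TSHB was dim, r was 0.973 over 5 arrays. With each array left out in turn, r lay between 0.949 and 0.980.

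**Figure D2:**
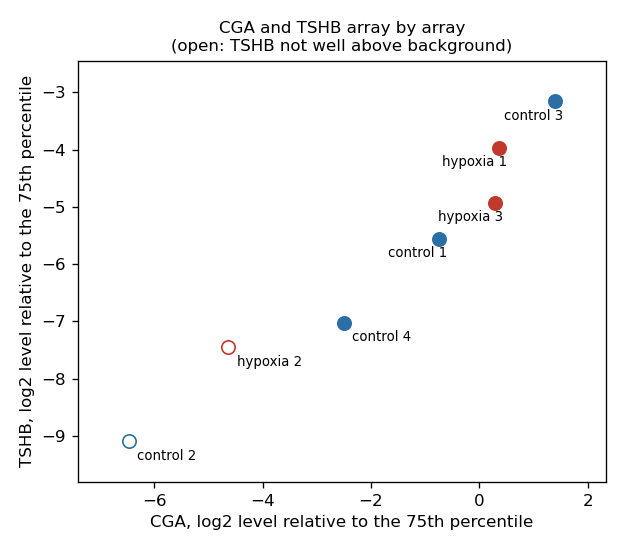
Level of TSHB against level of CGA (reported probe), both as log2 processed signal relative to the array's 75th percentile, with 1 point per array, hypoxia in red and control in blue. Open points mark the arrays on which TSHB was not well above background. Both levels are lowest on control replicate 2 and highest on control replicate 3, hypoxia replicates 1 and 3 lie close together in CGA, and the lowest 2 points rest on dim TSHB signals.

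Few probes on the array varied as much as those of CGA and TSHB. The SD over the 7 arrays was 2.90 for the reported CGA probe, 3.06 for the other CGA probe and 2.09 for TSHB, which rank 5, 2 and 26 among the 12711 tested probes. The median SD over all tested probes was 0.22, and their median span was 0.63. The SD within groups was as large, at 3.15, 3.29 and 2.24, and ranked these 3 probes 3, 2 and 13. Values not well above background enter these SDs and ranks. They are those of TSHB on hypoxia replicate 2 and control replicate 2, and of the other CGA probe on control replicate 2.

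The variation was also present within each slide. Among the 3 hypoxia arrays of slide 1, CGA spanned 4.98 and TSHB 3.48 on the log2 scale. Between the 2 control arrays of slide 2, CGA differed by 5.72 and TSHB by 3.53, and between those of slide 3 by 3.90 and 3.87. The labels do not state how the tissue was dissected or whether stalk or pituitary tissue came with it. In bulk tissue, fewer cells of a type and less RNA per cell cannot be told apart.

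MTNR1A was at or near background on all arrays. Its reported probe had levels of -7.53, -7.45 and -6.97 on hypoxia replicates 1 to 3, against -8.60, -7.77, -6.83 and -7.16 on control replicates 1 to 4, and was well above background on control replicates 3 and 4 alone. Its other probe had levels of -9.16, -9.22 and -8.66 on the hypoxia arrays, against -8.33, -8.66, -8.42 and -9.57 on the control arrays, and was well above background on 0 of 7. Control replicates 3 and 4 thus hold the only measured values of MTNR1A, and CGA was highest on the one and among the 3 lowest on the other. The lowest level called well above background differed between arrays, from -7.70 to -6.60. Hypoxia replicate 3, at -6.97, was not called although control replicate 4, at -7.16, was, so the calls do not rank the arrays by level. The receptor gave no measured level on hypoxia replicates 1 and 3, which were among the 3 highest in CGA. The label pars tuberalis is therefore borne by CGA and TSHB, which are not particular to it, and not by a measured level of the melatonin receptor.

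The study compared fetuses after transient hypoxia with fetuses kept at normal oxygen, and in that comparison neither CGA nor TSHB passed the test. CGA averaged -1.33 ± 2.86 in hypoxia (SD, n = 3) and -2.08 ± 3.33 in control (SD, n = 4). The difference was 0.75 (SE 1.97, 95% interval -3.84 to 5.34, limma adjusted p = 0.879). For the other CGA probe it was 1.13 (SE 2.05, limma adjusted p = 0.818). TSHB averaged -5.45 ± 1.80 in hypoxia (SD, n = 3) and -6.21 ± 2.50 in control (SD, n = 4), with arrays below background included. Its difference was 0.76 (SE 1.40, 95% interval -2.51 to 4.03, limma adjusted p = 0.820).

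The intervals run from large falls to large rises, so a difference of several-fold in either direction was not detectable with these arrays. None of the 3 tested probes of CGA and TSHB passed the adjusted threshold of 0.05, against 0.0157% of the 12711 tested probes, and none passed an unadjusted 0.05, against 15.7%. For none of the 3 were the groups apart, against 16.2% of all tested probes. The direction of both genes turned with the controls used: against control replicates 3 and 4 of slide 3 alone, CGA differed by -0.78 and TSHB by -0.36, and without control replicate 2 they differed by -0.71 and -0.20. CGA also turned without hypoxia replicate 1 (-0.09) and without hypoxia replicate 3 (-0.06), while TSHB was at 0.02 and 0.50 without these.

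MTNR1A had too few measured arrays to be tested with the other probes. Its reported probe differed by 0.28 between the group means and its other probe by -0.27, both less than the SD within the control group. A fold against the background limit came out below 1, so none is given.

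The rest of the thyrotropic axis was described from a list of 22 genes, of which 11 had a probe and 9 were tested, CGA and TSHB among them. Of the 7 others, 5 had a positive difference and 2 a negative one, 0 passed the adjusted threshold in limma and 1 passed an unadjusted 0.05. Their median difference was 0.13, against 0.03 over all tested probes, of which 54.7% were higher in hypoxia and 15.7% passed an unadjusted 0.05. TRH, the hypothalamic releasing hormone of the axis, and the deiodinases DIO1, DIO2 and DIO3, which activate or inactivate thyroid hormone, were not analysed here.

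LHB, the beta subunit that pairs with CGA in LH, was steady over the arrays while CGA was not. Its reported probe had levels of 2.44, 2.69 and 2.52 on the hypoxia arrays, against 2.11, 1.93, 2.30 and 2.31 on the control arrays. The groups were just apart, as they were for 16.2% of all tested probes. LHB differed by 0.39 on this probe (SE 0.13, limma adjusted p = 0.250) and was the member of the list past an unadjusted 0.05. Its other probe read much lower, between -4.40 and -3.93 on the hypoxia arrays and between -4.92 and -4.28 on the control arrays, with a difference of 0.39 as well (SE 0.19, limma adjusted p = 0.352) and overlapping groups. Why the LHB probes lie so far apart was not tested, so the level of the LHB transcript is uncertain.

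FSHB, the beta subunit of FSH, was well above background on control replicates 1 and 4 alone. It had levels of -7.69, -8.49 and -7.46 on the hypoxia arrays, against -6.09, -8.85, -9.60 and -3.09 on the control arrays. Its highest array, control replicate 4, was among the 3 lowest in CGA, so its measured values did not follow the order of CGA.

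TSHR and TRHR, receptors of the axis, varied far less over the arrays than CGA and TSHB. TSHR, on which thyrotropin acts, had levels of -5.32, -5.77 and -5.14 on the hypoxia arrays, against -5.35, -6.00, -4.84 and -4.51 on the control arrays, and differed by -0.24 (SE 0.35, limma adjusted p = 0.770). It was lowest on control replicate 2 and hypoxia replicate 2, the arrays that were lowest in TSHB as well, and highest on control replicate 4. TRHR, the receptor through which TRH acts on thyrotrophs, had levels of -1.43, -2.25 and -1.74 on the hypoxia arrays, against -1.73, -1.87, -1.76 and -2.40 on the control arrays, and differed by 0.13 (SE 0.24, limma adjusted p = 0.819). Another TRHR probe, well above background on 7 of 7 arrays, had levels of -3.20, -3.83 and -3.46 on the hypoxia arrays. On the control arrays it was at -3.68, -3.91, -3.26 and -3.90. This probe was highest on hypoxia replicate 1 and control replicate 3, which were high in CGA and TSHB too, and lowest on control replicates 2 and 4. It differed by 0.19 (SE 0.21, limma adjusted p = 0.678), and its relation to CGA was not tested. The groups overlapped for both receptors.

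The gonadotropin receptors and the thyroid hormone receptor THRB, a nuclear receptor, likewise did not pass. LHCGR, the LH receptor, differed by 0.23 (SE 0.17), FSHR, the FSH receptor, by 0.13 (SE 0.73), and THRB by 0.11 (SE 0.17), with limma adjusted p = 0.511, 0.952 and 0.785. The reported FSHR probe was well above background on 5 of 7 arrays. The other probe of LHCGR and that of FSHR were so on 0 of 7. THRA, the other thyroid hormone receptor, was well above background on 1 of 7 arrays and was not tested.

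The melatonin and photoperiod list held 20 genes, of which 10 had a probe and 8 were tested. Of the 6 tested genes other than CGA and TSHB, 3 had a positive difference and 3 a negative one, with 0 past the adjusted threshold in limma, 1 past an unadjusted 0.05 and a median of -0.04. Among all tested probes, 54.7% were higher in hypoxia and 15.7% passed an unadjusted 0.05. AANAT, the enzyme that sets the rhythm of melatonin synthesis, had levels of -3.95, -3.67 and -3.88 on the hypoxia arrays, against -4.01, -3.04, -3.82 and -4.16 on the control arrays, and differed by -0.08 (SE 0.26, limma adjusted p = 0.908). Its arrays stood in another order than those of CGA, with control replicate 2 highest. GPR50, a relative of the melatonin receptors, was well above background on 0 of 7 arrays, and MTNR1B and the synthesis enzyme ASMT were not analysed here.

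CREM, a cyclic AMP responsive transcription factor, was the gene of the melatonin list past an unadjusted 0.05. It had levels of -3.48, -3.55 and -3.63 on the hypoxia arrays, against -4.23, -3.90, -4.06 and -3.79 on the control arrays. The groups did not overlap, as was so for 16.2% of all tested probes. CREM differed by 0.44 (SE 0.13, limma adjusted p = 0.215). Another CREM probe that was well above background on 7 of 7 arrays had levels of -4.30, -4.33 and -4.78 on the hypoxia arrays, against -4.91, -4.74, -4.65 and -4.69 on the control arrays. Its groups overlapped, and it differed by 0.28 (SE 0.15, limma adjusted p = 0.392). NPVF, the precursor of the peptide RFRP-3 and a photoperiod responsive gene, differed by 0.01 (SE 0.55) with overlapping groups. The circadian clock list had 17 genes and 9 tested, of which 6 had a positive and 3 a negative difference, 0 passed the adjusted threshold, 1 passed an unadjusted 0.05, and the median was 0.05. Over all tested probes the shares were 54.7% higher in hypoxia and 15.7% past an unadjusted 0.05.

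**Figure D3:**
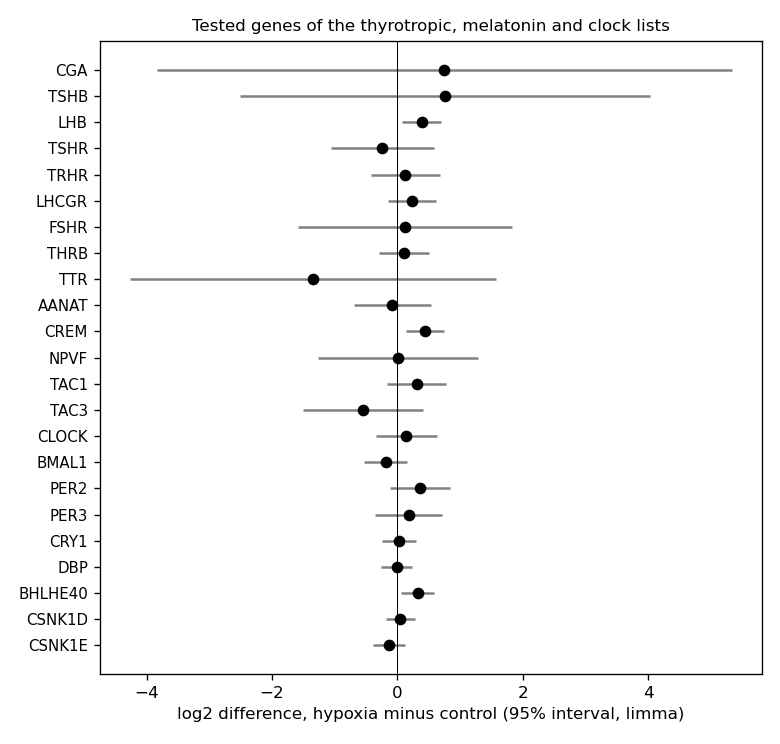
Log2 difference between hypoxia and control (hypoxia minus control) for the 23 tested genes of the thyrotropic, melatonin and clock lists, as points with 95% intervals from limma. CGA, TSHB and TTR have the widest intervals, and the intervals of LHB, CREM and BHLHE40 lie above 0 although none passed after adjustment over all tested probes.

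Hormone genes of the pars distalis showed another order of arrays than CGA and TSHB. PRL, which encodes prolactin, had levels of -4.38, -5.14 and -4.11 on the hypoxia arrays, against -3.72, -3.46, -3.80 and 1.13 on the control arrays. Control replicate 4 stood far above the others in PRL but not in CGA. The growth hormone gene GH had levels of -9.24, -9.30 and -9.03 on the hypoxia arrays, against -8.28, -8.89, -9.73 and -1.82 on the control arrays, and was well above background on control replicate 4 alone.

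On control replicate 3, where CGA and TSHB were highest, PRL was at -3.80 and GH and FSHB were not well above background. PRL differed by -2.08 (SE 1.18, limma adjusted p = 0.420), with every hypoxia array below every control array. Groups were apart for 16.2% of all tested probes, and the PRL mean of the controls holds 1.13 on control replicate 4, against -3.80 to -3.46 on the others. POMC, the precursor of ACTH, which hypothalamic neurons express too, had levels of 1.37, 1.51 and 1.04 on the hypoxia arrays, against 0.90, 0.71, 1.34 and 1.99 on the control arrays, and differed by 0.08 (SE 0.30, limma adjusted p = 0.925). POU1F1, the transcription factor of pars distalis cells that make growth hormone, prolactin and thyrotropin, was well above background on 0 of 7 arrays, as were the reported probes of GNRHR and GHSR.

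**Figure D4:**
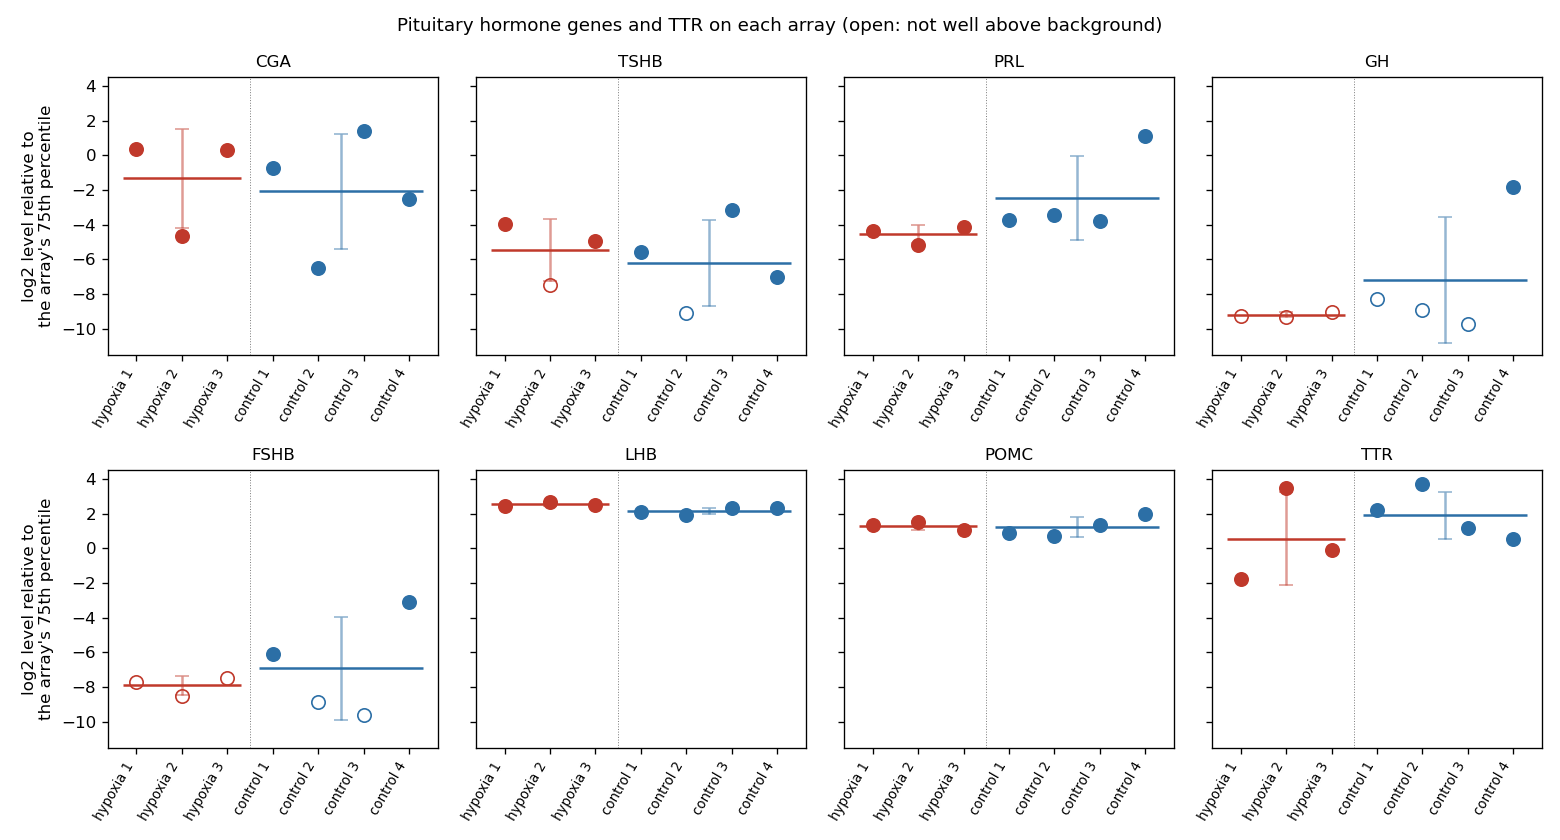
Levels of CGA, TSHB, the hormone genes PRL, GH, FSHB, LHB and POMC, and TTR on each array, as log2 processed signal relative to the array's 75th percentile, with hypoxia in red and control in blue, open points not well above background, group means as lines and SD as bars (n = 3 hypoxia, n = 4 control). PRL, GH and FSHB are highest on control replicate 4, CGA and TSHB are highest on control replicate 3, and TTR is highest on the arrays lowest in CGA.

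As a whole, the anterior pituitary marker list had 28 genes, of which 17 had a probe. The summed level of the 15 other than CGA and TSHB, in units of the 75th percentile signal, lay between 8.57 and 9.91 on the hypoxia arrays and between 6.29 and 12.2 on the control arrays, highest on control replicate 4. LHB and POMC made up most of this sum on every array, so it does not measure the amount of anterior pituitary tissue. Of these 15 genes, 7 were well above background on all arrays and 3 on none, and their part in the range of CGA and TSHB was not tested. Of the 10 tested, 6 had a positive and 4 a negative difference, with 0 past the adjusted threshold in limma, 3 past an unadjusted 0.05 and a median of 0.10, against 54.7% higher and 15.7% past an unadjusted 0.05 among all tested probes.

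TTR, which encodes the thyroid hormone carrier transthyretin and marks the choroid plexus, ran largely against CGA and was singled out after its values were seen. It had levels of -1.77, 3.49 and -0.08 on the hypoxia arrays, against 2.18, 3.69, 1.17 and 0.56 on the control arrays, and differed by -1.35 (SE 1.25, limma adjusted p = 0.619). Control replicate 2 and hypoxia replicate 2, highest in TTR, were lowest in CGA and TSHB, and hypoxia replicates 1 and 3, lowest in TTR, were among the 3 highest in CGA. AQP1, the other choroid plexus gene with a probe, was well above background on 1 of 7 arrays. The part of choroid plexus in the range of CGA and TSHB was not tested.

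The other marker lists are given by their summed levels, which the brightest members carry. Summed tanycyte and median eminence markers, of which 4 of 12 had a probe, lay between 39.9 and 48.2 on the hypoxia arrays and between 51.1 and 72.1 on the control arrays, groups that did not overlap. VIM made up nearly all of the sum, and GPR50 was well above background on 0 of 7 arrays. The sum thus gives the level of the reported VIM probe and not of tanycyte markers as a group. The groups of the other VIM probe, which is not in the sum, overlapped. Among all tested probes, 16.2% had groups that did not overlap. Markers of hypothalamic neurons, 12 of 18 with a probe and each well above background on 7 of 7 arrays, summed to 24.5 to 31.9 on the hypoxia arrays and 21.3 to 35.2 on the control arrays. Of all spots, 77.2% to 86.4% per array were well above background, and no other tissue was there to compare. Astroglial markers, 5 of 8 with a probe, summed to 53.7 to 64.3 on the hypoxia arrays and 38.9 to 57.7 on the control arrays. Meningeal and fibroblast markers, 6 of 7 with a probe, summed to 9.44 to 14.6 on the hypoxia arrays and 11.2 to 32.0 on the control arrays. The part of these cell types in the CGA and TSHB values was not tested.

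Among 814 named genes with values on all arrays, TSHB had the profile most like CGA and CGA the profile most like TSHB. The pair was picked because the genes vary together on these arrays, so these ranks only describe that choice. After TSHB, the genes most like CGA included PMCH, the precursor of melanin-concentrating hormone (r = 0.791), PCNA, a DNA replication clamp (0.788), and CNN1, a smooth muscle calponin (0.772). HSD11B1, which regenerates active glucocorticoid (0.758), SFN, a 14-3-3 protein (0.746), and TSPO, a mitochondrial outer membrane protein (0.743), had lower correlations. All these correlations are over 7 arrays that each share 1 RNA sample and 1 scaling factor, were picked as the highest of 814, and were not tested. The genes named after TSHB spanned 0.45 to 1.89 on the log2 scale over the arrays, far less than CGA. Other probes of PMCH, PCNA, HSD11B1 and TSPO correlated with CGA at 0.811, 0.723, 0.764 and 0.669.

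After CGA, the genes most like TSHB included the orexin receptor gene HCRTR2 (r = 0.813), the interleukin receptor gene IL13RA1 (0.772), CNN1 (0.746), the lung surfactant gene SFTPC (0.724), the enolase gene ENO3 (0.707) and PCNA (0.707). These too were picked as the highest of 814 and were not tested. Other probes of IL13RA1, SFTPC, ENO3 and PCNA correlated with TSHB at 0.562, 0.723, 0.544 and 0.780. Among 12683 probes, named or not, TSHB, picked for this relation, ranked 1 by its correlation with CGA. The next probe, which is not a member, was at 0.972 as well. In all, 18 of these probes correlated with CGA above 0.9 and 39 below -0.9.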

How the data were processed

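RNA of 7 hypothalami was hybridised with Cy3 as 1 colour. Per the file headers, spot intensity was extracted with Agilent Feature Extraction 10.1.1.1, and the processed intensity is background-subtracted. The authors' deposited values are log2 of the same intensity, equal within 5e-09 and unscaled. Here the log2 processed intensity minus each array's 75th percentile over non-control spots was used, leaving out 62 outlier spot values and averaging spots of a probe. The 12711 of 15008 probes that were well above background on 3 or more of the 7 arrays were compared in limma 3.58.1 (R 4.3.3; lmFit, eBayes, 2-sided), with Benjamini-Hochberg adjustment at 0.05. The procedure was tested on simulated data. Gene names came from the files and the RefSeq table, and 1515 probes had one.

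The members and the gene lists were chosen with earlier results of these data known. The text names every member probe, the 8 named genes most correlated with CGA and with TSHB, and the hormones, receptors and enzymes of the lists; 1 gene that the rule names is not reported here. Sample titles give the group and the replicate number. Nothing says that numbers pair fetuses, and same-number correlations of deviations were 0.121, 0.0876 and 0.107. The number of arrays limits the precision, and p-values measure the spread between these fetuses. Alternatives were other scalings, normexp, the deposited values, other filters, another prior, array weights, 1 array left out at a time, blocks by replicate number or by slide (random), and the controls of 1 slide only.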

Additional observations from a re-analysis of the deposited data

Results flagged for a closer look

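Among the 4 control arrays, the level of a reported probe was checked for 1 array far from the other 3 in 73 genes named or listed here, and only where at least 3 controls were well above background was it kept. Chance alone gives about 3.65 such genes if none is picked by its levels, and 5 were found. PRL reached 1.13 on control replicate 4, while the other controls had -3.80 to -3.46. DCN, a matrix proteoglycan gene of fibroblasts, was at 1.23 on control replicate 2, against 2.01 to 2.09, on the array lowest in CGA and TSHB. FSHR was at -8.53 on control replicate 1, a value not well above background, against -5.93 to -5.46. LHCGR was at -6.25 on control replicate 3, against -5.74 to -5.64. IL13RA1 was at -2.44 on control replicate 3, the array highest in CGA and TSHB, against -2.77 to -2.72. It was picked for its correlation with TSHB on these arrays, so this match follows in part from that choice. CGA and TSHB had no control array far from the other 3, and MTNR1A, well above background on 2 controls, could not be kept.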

How the results depend on the processing

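No alternative carried CGA or TSHB past the adjusted threshold. Over 20 alternatives CGA differed by -0.78 to 2.40 (lowest limma adjusted p = 0.630), and over 18 TSHB differed by -0.36 to 1.87 (lowest limma adjusted p = 0.509). Against slide 3 alone the differences were -0.78 for CGA and -0.36 for TSHB, and against slide 2 alone 2.27 and 1.87. With single arrays left out, CGA lay between -0.71 and 2.40 (-0.09 and -0.06 without hypoxia replicates 1 and 3, -0.71 without control replicate 2), TSHB between -0.20 and 1.77 (-0.20 without control replicate 2), and the probes past the threshold between 0 and 6 (0 without control replicates 1, 3 or 4). MTNR1A differed by 0.87 against slide 2 alone and by -0.32 against slide 3 alone, and by -0.06 to 0.53 with single arrays left out; the all-array filter, random block, other prior and array weights gave none. The probes past the threshold, 2 in the reported analysis, were 10 with normexp, 10 with the deposited values, 0 without a filter, 25 with the filter on all 7 arrays, 232 against slide 2 alone, 4 against slide 3 alone, 57 with a trended and robust prior and 4 with array weights; the cause was not tested. With replicate number as a block, CGA differed by 0.61 (limma adjusted p = 0.630), TSHB by 0.49, and 0 probes passed; each array numbered 1 to 3 correlated best with its own number in the other group, a hint from the data and not from the design, while control replicate 4 has no such partner. The random slide block had an estimated correlation of -0.03. With normexp the correlation of CGA with TSHB was 0.860, where an added offset flattens dim signals. The SE of the hypoxia difference with normexp was 1.35 for CGA and 0.46 for TSHB, against 1.97 and 1.40 in the reported analysis. All hypoxia arrays are on 1 slide, so slide and hypoxia cannot be told apart, and TSHB and MTNR1A near background limit what their levels show.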
